A study of Mus musculus with 2 samples.

Results

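The EGF receptor ligands and receptors examined here were 8 genes of the 32285 in the count tables, found by symbol. The 5 ligands were Hbegf (heparin-binding EGF-like growth factor), Areg (amphiregulin), Ereg (epiregulin), Tgfa (transforming growth factor alpha) and Btc (betacellulin). The 3 receptors were Egfr, Erbb3 and Erbb4. Single-cell RNA sequencing (scRNAseq) was performed on kidney cells of wildtype male C57BL/6J mice aged 19 weeks. In the ischemia group the left kidney was clamped for 27 min and harvested after 24 h of reperfusion, and the control was the uninjured kidney of the other side, so the control tissue came from a body that also held an injured kidney. There was 1 library per condition, from whole digested kidney. Differences between libraries and effects of ischemia therefore cannot be told apart, and no test between conditions was possible.

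EGF family ligands are made as membrane-anchored precursors, and metalloproteases such as ADAM17 release them from the cell surface. They bind receptors of the ErbB family, which pair on binding and signal through RAS and the kinase ERK. HB-EGF and betacellulin bind both EGFR and ErbB4, while amphiregulin and TGF alpha bind EGFR. ErbB3 has little kinase activity of its own and signals through its partners. In the kidney, EGF itself is a product of the thick ascending limb and distal tubule, and EGFR signalling in tubule cells is known for its part in the response to acute injury.

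After filtering, 12586 control and 13116 ischemia cells were kept, with 124679362 and 128733541 UMIs (unique molecular identifiers, each standing for 1 captured RNA molecule). Of 18 clusters, 16 were named from marker genes and gave 13 cell classes. They were proximal tubule (PT), thin limb of Henle, thick ascending limb (TAL), distal convoluted and connecting tubule (DCT-CNT), collecting duct principal cells (CD-PC), intercalated cells, podocytes, endothelial cells (EC), pericytes with fibroblasts, macrophages, neutrophils (PMN), T cells and B cells. Every marker of each of these lists was detected in its own class in both libraries, except 1 of 10 thin limb markers in ischemia. The CD-PC class was not clean by these lists. Its intercalated cell markers summed to 3752 and 2168 CPM in the control and ischemia libraries, against 13118 and 10485 CPM in the intercalated class. Its summed DCT-CNT markers, 33416 and 17144 CPM, were above those of the DCT-CNT class itself, 27674 and 16143 CPM. Injury markers differed between the libraries, with Havcr1 (control 7.15 CPM, ischemia 418 CPM) in PT and Lcn2 (424 and 5304 CPM) in TAL. Values are CPM, the UMIs of a gene per 1000000 UMIs of all cells of that class and library, with exact 95% intervals that cover counting error only. The libraries shared 88 cell barcodes, 58 of them among kept cells. The 2 unnamed clusters are left out of the classes, and the larger, of 10409 cells, had a median of 836 UMIs per cell. The smaller, of 1628 cells, had a median of 3862.5 UMIs per cell. Its leading genes held markers of both TAL (Wfdc15b and Ppp1r1a) and DCT-CNT (Pvalb, Klk1 and Calb1), so these 2 classes leave out such shallower cells.

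Areg, Ereg and Btc lie on chromosome 5 of the mouse genome build GRCm38. Ereg spans 91074622 to 91093646 and Areg 91139599 to 91148432, both on the plus strand, with 46.0 kb between them. Btc spans 91357261 to 91402994 on the minus strand, 209 kb beyond Areg. Tgfa is on chromosome 6 (86195223 to 86275719, plus strand), Egfr on chromosome 11 (16752203 to 16918158, plus strand), Erbb3 on chromosome 10 (128567523 to 128589652, minus strand) and Erbb4 on chromosome 1 (68032186 to 69108059, minus strand). These are protein-coding genes in GENCODE M21. Promoter sequences were at hand for 5 members (Areg, Tgfa, Btc, Egfr and Erbb4). They were searched on both strands for the cAMP response element TGACGTCA and the AP-1 element TGANTCA, neither of which contains the other. Areg was the member with a match, a cAMP response element that begins 61 bases before its start site. In 32851 promoters of the same length, 1.79% held this element and 7.81% the AP-1 element. The 100 bases before the Areg start site (RefSeq, GRCm38.p6, plus strand, chr5:91139499-91139598) are shown because they hold that match, in capitals.

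Areg: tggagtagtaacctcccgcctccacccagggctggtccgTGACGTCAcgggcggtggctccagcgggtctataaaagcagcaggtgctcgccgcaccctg

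The match is a description of the sequence, and the counts here do not bear on whether a factor binds it.

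**Figure D1:**
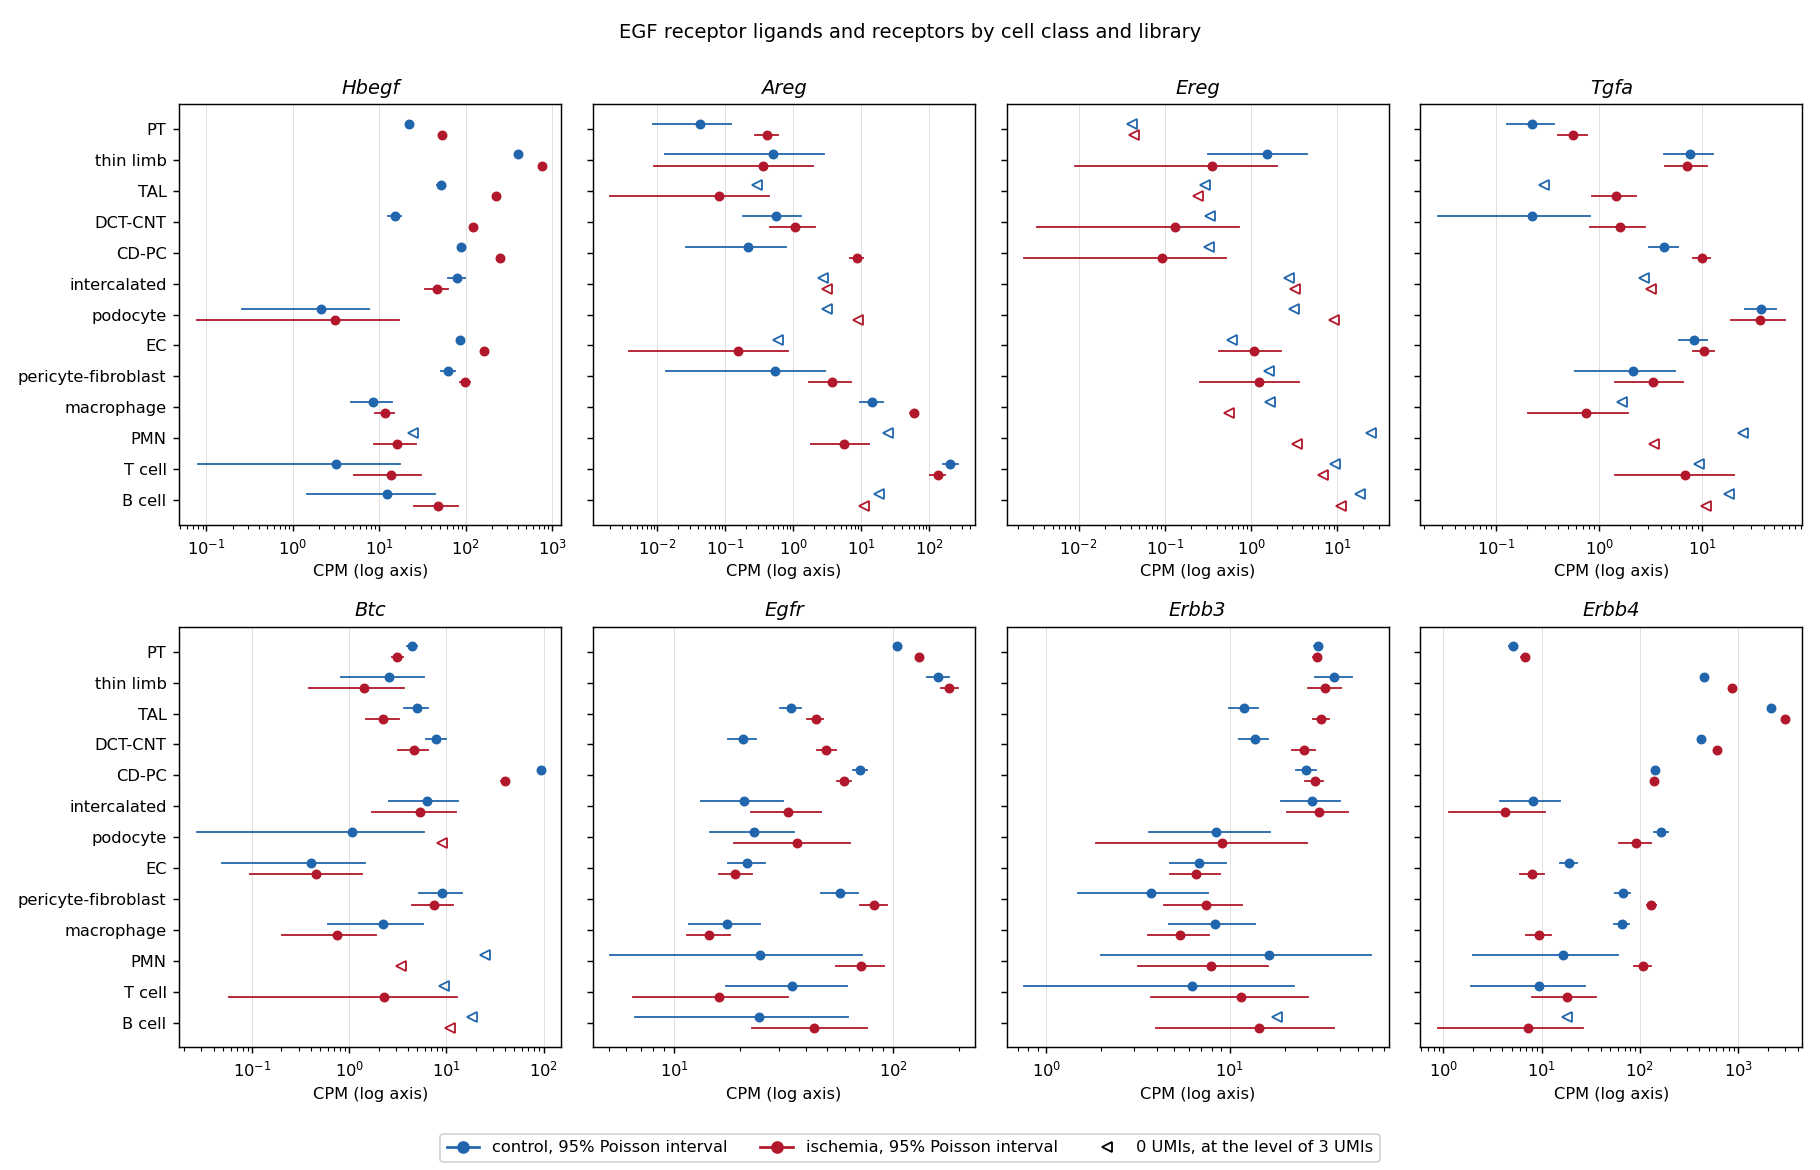
CPM of the 8 genes (log axis, one panel per gene) in 13 cell classes, control in blue and ischemia in red, with exact 95% Poisson intervals. Open triangles stand at the level of 3 UMIs where a class held 0 UMIs of the gene. Hbegf was higher in ischemia in most tubule classes, Btc was lower in CD-PC, and Erbb4 stood highest in TAL in both libraries.

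Hbegf was higher in the ischemia library in the tubule classes other than intercalated cells and in endothelial cells. In TAL it was 51.2 CPM (46.9 to 55.7) in control and 223 CPM (214 to 231) in ischemia, a ratio of 4.35 (3.96 to 4.78). In DCT-CNT it was 15.1 CPM in control and 122 CPM in ischemia, a ratio of 8.05 (6.71 to 9.72). The intervals of the libraries did not overlap in either class. The sizes depended on the processing, with 2.39-fold in TAL at most 25% mitochondrial UMIs and 4.23-fold in DCT-CNT without integration. In CD-PC the values were 88.5 and 251 CPM, a ratio of 2.83 (2.62 to 3.07). In PT they were 21.8 and 52.6 CPM, a ratio of 2.41 (2.27 to 2.56). PT cells of the libraries lay apart when clustered without integration, where the named PT cluster held 2081 control and 235 ischemia cells and an unnamed cluster with Havcr1 among its leading genes held 89 and 1472. The thin limb held the highest Hbegf level of any class in both libraries, 405 CPM in control and 766 CPM in ischemia, with a ratio of 1.89 (1.74 to 2.06). In that class 5 of 103 control cells held 361 of 796 Hbegf UMIs and 5 of 96 ischemia cells held 751 of 2155. Urothelium markers summed to 239 CPM in control thin limb, with 4 of 7 markers at 0, and to 2.13 CPM in ischemia thin limb, with 6 at 0. The ratio without cells that carried such markers is given below, with the counts of members beyond 2-fold. In intercalated cells the order was turned, from 78.1 CPM in the control library to 46.7 CPM in the other, but with 58 and 46 cells, and 64 of the 86 control UMIs came from 5 cells. The order was not stable, with a ratio of 2.01 at a clustering resolution of 0.6, where a further cluster led by Aqp6 joined the class.

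Hbegf UMIs were also spread over a larger share of TAL, DCT-CNT and PT cells in ischemia. Of TAL cells, 40.3% held a Hbegf UMI in control and 71.3% in ischemia, and after each cell was thinned to 1000 UMIs these shares were 5.67% (3.80 to 8.09) and 15.1% (12.0 to 18.6). In DCT-CNT the thinned shares were 2.85% and 10.6%, and in PT 2.12% and 4.85%. T and B cells, which served as the background for free RNA, held 0.725% and 1.94% after thinning, with median depths of 3116 and 3529 UMIs against 20065 and 24634 UMIs in TAL. In ischemia the TAL and DCT-CNT intervals lay above that of the background (0.401 to 5.55), while the PT interval (4.07 to 5.72) overlapped it, and in control all 3 overlapped it (0.0183 to 3.97). Of the other tubule classes, CD-PC had thinned shares of 7.56% and 14.7%. Intercalated cells had 8.62% and 4.35% and the thin limb 19.4% and 28.4%, each with overlapping intervals. Within PT, cluster 3, led by Slc22a6 and Slc7a13 of the late segment, had 34.7 and 66.2 CPM. Cluster 2, led by Slc5a12 and Slc5a2 of the early segment, had 15.7 and 52.6 CPM, a ratio of 3.36 (3.03 to 3.73) against 1.91 (1.76 to 2.07) in cluster 3. Cluster 1, the largest of the named PT clusters with 2751 cells, had 10.7 and 19.4 CPM, a ratio of 1.81 (1.46 to 2.24).

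In endothelial cells Hbegf was 86.4 CPM in control and 160 CPM in ischemia, a ratio of 1.85 (1.65 to 2.08). The small endothelial cluster led by Plat and Ehd3, genes of the glomerular endothelium, had 264 and 391 CPM. The larger one led by Fabp4 and Plvap, genes of the peritubular endothelium, had 62.5 and 147 CPM. The cluster led by Plat held the higher level in both libraries and the cluster led by Fabp4 the larger ratio, 2.35 (2.05 to 2.70) against 1.48 (1.17 to 1.88). In the cluster led by Fabp4, 5 of 1000 ischemia cells held 275 of 913 Hbegf UMIs. After thinning, 6.13% (4.64 to 7.92) and 8.02% (6.40 to 9.90) of all endothelial cells held a UMI, and these intervals overlap. Pericytes with fibroblasts had 61.8 and 98.2 CPM, but 5 of 297 ischemia cells held 127 of 239 UMIs, and the thinned shares were 5.81% and 5.24%. Macrophages were low, at 8.36 CPM (4.68 to 13.8) and 11.7 CPM (8.97 to 14.9), and these intervals overlap. Their ratio of 1.40 was 2.60 when CPM was taken per cell and averaged, 2.67 without the highest doublet scores and 4.71 without the 5 highest cells of each library. Podocytes held 2 and 1 Hbegf UMIs.

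The TAL and DCT-CNT held a larger share of Hbegf UMIs in ischemia. PT held 33.5% of Hbegf UMIs in control and 25.5% in ischemia, while it held 57.6% and 53.0% of all UMIs. TAL held 11.3% and 19.8% of Hbegf UMIs with 8.31% and 9.69% of all UMIs. DCT-CNT held 2.89% and 6.59% with 7.16% and 5.91%. CD-PC held 17.7% and 19.4% with 7.49% and 8.45%, and intercalated cells 1.84% and 0.313% with 0.883% and 0.732%. The thin limb held 17.0% and 15.3% of Hbegf UMIs with 1.58% and 2.18% of all UMIs.

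**Figure D2:**
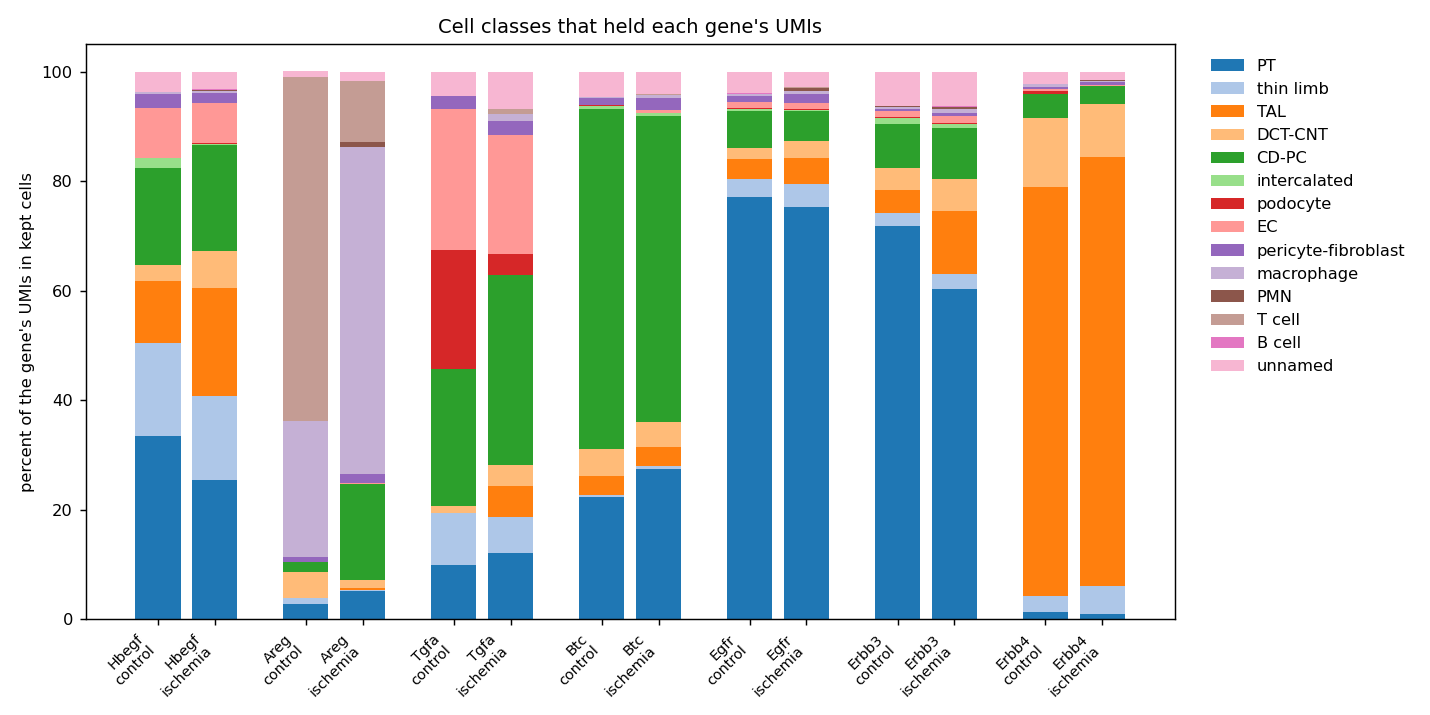
Percent of each gene's UMIs in kept cells (vertical axis) by cell class, for control and ischemia side by side; Ereg, with 16 UMIs in all, is left out. Areg UMIs came mostly from T cells in control (62.9%) and from macrophages in ischemia (59.8%), Egfr mostly from PT and Erbb4 mostly from TAL.

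Areg, which is known as a product of immune cells in tissue repair, was found mainly in leukocytes. Of 105 Areg UMIs in control, 66 were in T cells and 26 in macrophages. Of 532 in ischemia, 318 were in macrophages, 93 in CD-PC and 59 in T cells. In macrophages Areg was 14.5 CPM (9.47 to 21.2) in control and 58.9 CPM in ischemia, a ratio of 4.06 (2.72 to 6.32). These UMIs came from 8 of 290 control cells and 42 of 585 ischemia cells, or 1.42% (0.388 to 3.59) and 3.16% (1.89 to 4.95) after thinning, against 0.0265% and 0.0364% in PT as background. The 5 cells with the most Areg held 160 of the 318 UMIs in ischemia, and without the 5 highest cells of each library the ratio was 17.4, from 3 and 158 UMIs. When cells were clustered without integration, the macrophages split into a cluster led by C1qa and one led by Lyz2, Chil3 and Fn1. Areg was 13.8 and 46.0 CPM in the first and 23.4 and 71.4 CPM in the second, where control had 18 cells.

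Areg in the T cell cluster was 206 CPM (160 to 263) in control and 135 CPM in ischemia, from 8 of 99 and 7 of 115 cells. The ratio was 0.655 (0.453 to 0.945). Gata3, a regulator of type 2 lymphocytes, was detected in 6 of the 8 and 6 of the 7 Areg-positive cells, but in 16 of 91 and 25 of 108 of the other cells of that cluster. Il1rl1, the IL-33 receptor, was found in 4 of 8 and 3 of 7, and in 2 of 91 and 3 of 108 of the others. Nkg7, a gene of cytotoxic and natural killer cells, was found in 0 of 8 and 0 of 7, against 55 of 91 and 64 of 108. Cd3e, part of the T cell receptor complex, was found in 4 of 8 and 3 of 7 against 40 of 91 and 50 of 108, and Foxp3, of regulatory T cells, was found in 1 of 8 and 0 of 7 against 1 of 91 and 1 of 108. These genes were chosen after the values were seen.

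The Areg UMIs of the collecting duct class came from few cells with another identity. In CD-PC, Areg was 0.214 CPM in control (2 UMIs) and 8.55 CPM in ischemia (93 UMIs), a ratio of 39.9 (10.7 to 334), and 5 cells held all 93. Of these, 4 cells carried at least 10 UMIs of urothelium markers such as uroplakins, and these 4 cells held 91 of the 93 UMIs, with 67 in 1 cell. In control 1 of 451 CD-PC cells met that limit and held 0 Areg UMIs. Without such cells CD-PC had 2 Areg UMIs in each library, a ratio of 0.872. In PT there were 3 Areg UMIs in control and 28 in ischemia, over 19 cells, at 0.0418 and 0.411 CPM, a ratio of 9.82 (3.03 to 50.5). TAL held 0 and 1.

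Ereg, which encodes a ligand of EGFR and ErbB4, was at a few UMIs in these libraries. There were 3 UMIs in control, all in the thin limb, and 13 in ischemia, 7 of them in 1 endothelial cell. In PT, 0 UMIs were found in either library, which allows levels of up to 0.0418 and 0.0440 CPM. No difference could be read at this depth.

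Tgfa had its highest level in podocytes, the epithelial cells of the glomerular filter, with 37.0 CPM (25.7 to 51.4) in control and 36.4 CPM (18.8 to 63.6) in ischemia. The ratio was 0.985, with an interval of 0.465 to 1.94. In CD-PC it was 4.29 CPM (3.06 to 5.84) and 9.93 CPM (8.15 to 12.0), a ratio of 2.32 (1.60 to 3.42), and 27 of 451 and 62 of 389 cells held a UMI. The libraries' intervals do not overlap in CD-PC, but the ratio was 1.29 when CPM was taken per cell and then averaged. In TAL there were 0 UMIs in control and 18 in ischemia, over 13 cells. The ischemia value was 4.98-fold the level of 3 control UMIs, and the interval of the ratio began at 3.65. After thinning, 0 of 494 and 2 of 484 TAL cells held a UMI, or 0% and 0.413%, against 0% and 0.645% of T and B cells. In endothelial cells Tgfa was 8.23 and 10.4 CPM and in the thin limb 7.63 and 7.11 CPM, with overlapping intervals. PT held 16 and 38 UMIs, at 0.223 and 0.557 CPM, a ratio of 2.50 (1.36 to 4.80), which was 0.749 without integration (11 and 1 UMIs) and 4.84 with CPM averaged over cells.

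Btc was the ligand with lower values in ischemia. It was found mostly in CD-PC, which held 62.1% of its UMIs in control and 55.9% in ischemia. There it was 94.2 CPM (88.1 to 101) in control and 39.9 CPM (36.2 to 43.8) in ischemia, a ratio of 0.424 (0.377 to 0.476). The share of CD-PC cells with a Btc UMI was 36.4% and 38.0% as counted, and 6.00% (3.99 to 8.61) and 2.84% (1.42 to 5.02) after thinning. The median depth of CD-PC cells was 16237 UMIs in control and 21605 UMIs in ischemia. Btc was also lower in TAL (4.92 and 2.24 CPM), DCT-CNT (7.84 and 4.60 CPM) and PT (4.40 and 3.12 CPM). Of these 3 classes TAL had a ratio beyond 2-fold, at 0.456 (0.277 to 0.737). After thinning, 0.202% and 0.207% of TAL cells, 0.877% and 0.287% of DCT-CNT cells and 0.477% and 0.474% of PT cells held a Btc UMI. T and B cells held 0% (0 to 2.64) and 0% (0 to 2.35), and the intervals of these 3 classes overlapped theirs. The part of free CD-PC RNA in the Btc of other classes was not tested.

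**Figure D3:**
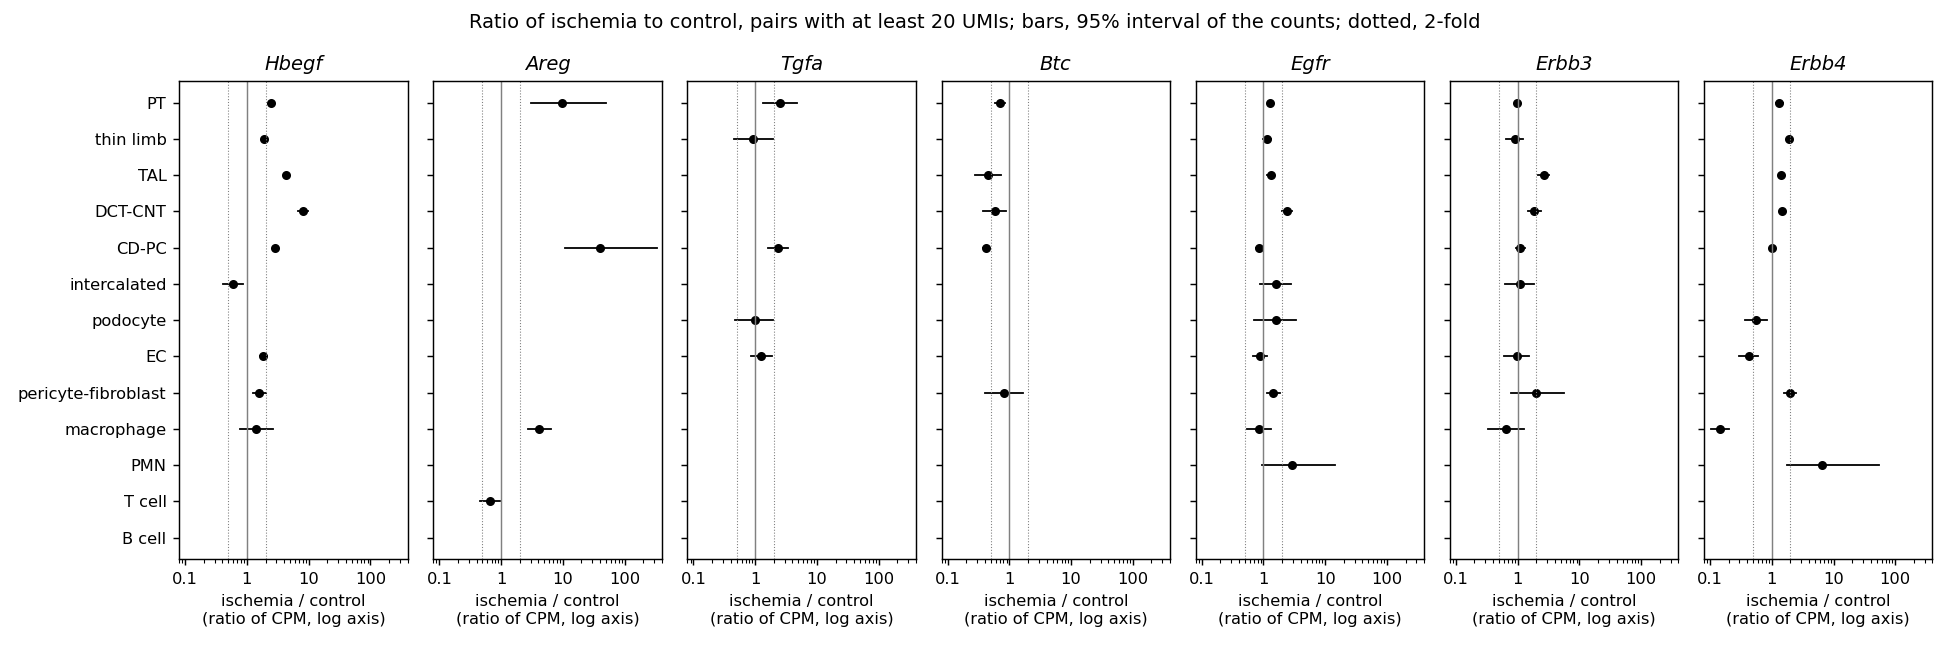
Ratio of ischemia to control CPM (log axis, one panel per gene) in each cell class where the gene had at least 20 UMIs and a UMI in both libraries. Bars are exact 95% intervals of the counts and dotted lines mark 2-fold. Hbegf lies to the right of 1 in all plotted classes but intercalated cells, and Btc to the left of 1 in all 5 classes plotted.

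Among the receptors, Egfr, the main receptor of these ligands, was found chiefly in PT, which held 77.2% of its UMIs in control and 75.3% in ischemia. PT also held 57.6% and 53.0% of all UMIs. In PT Egfr was 104 CPM (101 to 106) and 131 CPM (129 to 134), a ratio of 1.27 (1.23 to 1.31). Without integration, where PT kept 2081 control and 235 ischemia cells, the ratio was 0.968. The thin limb had the highest level, 161 and 180 CPM. DCT-CNT showed the largest difference of a tubule class, 20.5 CPM (17.6 to 23.7) in control and 49.4 CPM (44.6 to 54.7) in ischemia, a ratio of 2.41. In TAL the values were 34.0 and 44.2 CPM, and in CD-PC 70.5 and 59.6 CPM, a ratio of 0.845 (0.757 to 0.943). Endothelial cells had 21.5 and 19.0 CPM and macrophages 17.3 and 14.4 CPM, with overlapping intervals. As counted, the T and B cell background was 9.42% of cells in control and 7.10% in ischemia. The macrophage shares of 6.90% and 6.15% and the endothelial shares of 7.20% and 4.22% were below it. Their thinned shares were 1.77% and 1.05% in macrophages and 2.27% and 1.12% in endothelial cells, with intervals that overlapped those of the thinned background. The part of free RNA in the Egfr of these classes was not tested. After thinning, 2.85% of DCT-CNT cells in control and 6.32% in ischemia held an Egfr UMI, against 5.07% and 1.29% of T and B cells. The DCT-CNT intervals overlapped those of the background in both libraries, so these shares do not set its Egfr apart from background. The DCT-CNT difference was 1.18-fold when cells were clustered without integration, where a cluster led by Slc12a3 and Aqp2 fell in the class. In neutrophils there were 3 Egfr UMIs in control and 63 in ischemia, 57 of them in 5 cells.

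Erbb3, the partner receptor with little kinase activity, was 30.2 CPM (28.9 to 31.5) and 29.9 CPM (28.7 to 31.3) in PT, a ratio of 0.992 (0.933 to 1.05). It was higher in ischemia in TAL, where control had 12.0 CPM (9.96 to 14.3) and ischemia 31.6 CPM (28.5 to 34.9), a ratio of 2.64 (2.15 to 3.25). Of TAL cells, 99 of 496 and 215 of 484 held a UMI, and after thinning the shares were 1.01% (0.329 to 2.35) and 4.13% (2.54 to 6.31). The T and B cell background was 0.725% (0.0183 to 3.97) and 1.29% (0.157 to 4.58) after thinning. The TAL interval overlapped it in both libraries. DCT-CNT followed with 13.7 and 25.4 CPM, a ratio of 1.86 (1.47 to 2.35). After thinning, its shares were 1.54% (0.619 to 3.14) and 2.01% (0.812 to 4.10). These intervals overlapped each other and those of the background. In CD-PC Erbb3 was 26.1 and 29.1 CPM and in the thin limb 37.1 and 33.1 CPM, with overlapping intervals. PT held 71.8% of Erbb3 UMIs in control and 60.3% in ischemia, and TAL 4.11% and 11.6%. Of all UMIs, PT held 57.6% and 53.0%, and TAL 8.31% and 9.69%.

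Erbb4, which binds neuregulins, HB-EGF and betacellulin, had most of its UMIs in the TAL, 74.8% in control and 78.3% in ischemia. In TAL it was 2129 CPM (2101 to 2157) and 2958 CPM (2928 to 2988), a ratio of 1.39 (1.37 to 1.41), with a UMI in 491 of 496 and 476 of 484 cells. After thinning 80.4% and 83.9% of TAL cells held a UMI, and these intervals overlap. In the smaller unnamed cluster, with TAL and DCT-CNT markers, Erbb4 was 57.9 and 91.7 CPM. There 168 of 866 control cells and 101 of 762 ischemia cells held a UMI. DCT-CNT had 413 and 601 CPM, a ratio of 1.45, and thinned shares of 34.2% in both libraries. CD-PC had 141 and 139 CPM. In the thin limb the values were 447 and 861 CPM, but 5 cells held 1515 of the 2422 UMIs in ischemia. In podocytes Erbb4 was 164 CPM in control and 91.0 CPM in ischemia, a ratio of 0.556 (0.363 to 0.826). However, 5 of 91 control podocytes held 85 of 155 UMIs. After thinning, 10.8% (5.08 to 19.6) and 9.43% (3.13 to 20.7) of podocytes held a UMI, and these intervals overlap. PT was low, at 5.13 and 6.76 CPM, and its ratio of 1.32 lay between 0.637 and 0.861 under 4 alternatives, among them leaving out the 5 highest cells. Pericytes with fibroblasts had 66.6 and 131 CPM, with 117 of 125 and 301 of 318 UMIs in 5 cells.

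Erbb4 in macrophages and endothelial cells was lower in ischemia, and so were the TAL markers there. In macrophages it was 65.2 CPM in control and 9.45 CPM in ischemia, but 5 of 290 control cells held 101 of 117 UMIs. The 2 cells with the most, 71 and 15 UMIs, also held 186 and 151 UMIs of TAL markers. The summed TAL markers, all 9 detected, were 525 CPM in control macrophages and 115 CPM in ischemia macrophages, and their part in the result was not tested. Without the 5 highest cells of each library the ratio was 0.489. In endothelial cells Erbb4 was 18.9 and 8.07 CPM, a ratio of 0.428 (0.300 to 0.605), and the TAL markers were 375 and 152 CPM. The ratio there was 0.693 without the cells with the highest doublet scores. Neutrophils, with 19 control cells, had 2 and 95 UMIs, and 5 of 191 ischemia cells held 88 of the 95. Without the highest doublet scores the neutrophil ratio was 0.771, from 2 and 9 UMIs.

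Members beyond 2-fold were counted in each class among those with at least 20 UMIs over both libraries, and set beside the share of all genes with that many UMIs. In PT 3 of 7 members were at least 2-fold higher (Hbegf, Areg and Tgfa), where 8.29% of all genes were, and 0 were at least 2-fold lower, where 4.78% of all genes were. At most 25% mitochondrial UMIs brought Hbegf and Tgfa in PT to 1.99-fold each, Tgfa was 0.749-fold without integration, and Areg rested on 28 UMIs in 19 of 2794 ischemia cells of the class that served as its background. The larger unnamed cluster, with a median of 836 UMIs per cell, also had higher values of these 3 genes in ischemia. Hbegf was 15.2 and 40.1 CPM there, Tgfa 0.862 and 3.33 CPM, and Areg had 0 and 9 UMIs. The part of free RNA in the PT values was not tested. In the thin limb 0 of 5 were beyond 2-fold in either direction, with 4.84% of all genes higher and 8.91% lower. Hbegf lay close to the limit there, at 2.09-fold without cells with urothelium markers and 2.36-fold without the 5 highest cells of each library. In TAL 2 of 5 were higher (Hbegf and Erbb3; 9.61% of all genes) and 1 lower (Btc; 8.59%). In DCT-CNT 2 of 5 were higher (Hbegf and Egfr; 8.43%) and 0 lower (5.85%). In CD-PC 3 of 7 were higher (Hbegf, Tgfa and Areg, the last from the cells with urothelium markers; 7.41%) and 1 lower (Btc; 6.11%). In endothelial cells 0 of 5 were higher (2.89%) and 1 lower (Erbb4; 5.0%). In pericytes with fibroblasts 0 of 5 were higher (3.43%) and 0 lower (3.93%), but this count depends on the clustering, since at resolution 0.6 Hbegf was 2.89-fold and Erbb4 4.27-fold higher there, and Erbb4 was 3.90-fold higher without the highest doublet scores. In macrophages 1 of 5 was higher (Areg; 6.53%) and 1 lower (Erbb4; 7.59%). In neutrophils 2 of 2 were higher (Egfr and Erbb4), where 28.1% of all genes were, and 0 lower, where 4.33% were. These 2 pairs rest on 19 control cells with 3 Egfr and 2 Erbb4 UMIs. In ischemia neutrophils 5 cells held 57 of 63 Egfr and 88 of 95 Erbb4 UMIs. Erbb4 there was 0.771-fold without the highest doublet scores. Over all 13 classes, 13 of 53 member and class pairs were at least 2-fold higher and 4 lower, where 7.44% and 5.93% of all gene and class pairs were. The median log2 ratio of the members was 0.40 in PT, 0.47 in TAL, 0.89 in DCT-CNT and 0.15 in CD-PC, beside 0.11, 0.10, 0.09 and -0.01 over all genes. It was 0.17 in the thin limb, 0.67 in pericytes with fibroblasts, -0.06 in endothelial cells and -0.26 in macrophages, beside -0.04, 0.02, -0.02 and 0.07 over all genes. In the smaller classes it was 0.13 in intercalated cells (3 members), -0.02 in podocytes (3 members) and 2.23 in neutrophils (2 members), beside 0.01, 0.02 and 0.45. The single member with enough UMIs in T cells, Areg, was at -0.61, beside 0.09 over all genes.

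The other genes of the pathway were taken from a list of 46. Among the other ligands, Egf was lower in ischemia in all 13 classes by its CPM, with overlapping intervals in podocytes and some small classes. In TAL it was 2787 CPM (2755 to 2819) in control and 57.8 CPM (53.6 to 62.2) in ischemia, a ratio of 0.0207. In DCT-CNT it was 767 and 110 CPM, a ratio of 0.144 (0.133 to 0.154). In the smaller unnamed cluster, with TAL and DCT-CNT markers, Egf was 1022 and 52.5 CPM. It was also lower outside the distal tubule, at 51.3 and 1.11 CPM in macrophages and 14.5 and 1.52 CPM in PT. Slc12a1, the TAL sodium-potassium-chloride cotransporter, was lower beside it, at 5185 and 500 CPM in TAL and 98.1 and 3.70 CPM in macrophages. The part of free TAL RNA in the Egf of other classes was not tested. In podocytes Egf was 205 CPM (177 to 236) in control and 170 CPM (128 to 221) in ischemia, where Slc12a1 was 18.0 and 6.07 CPM. Nrg1 (neuregulin 1), a ligand of ErbB3 and ErbB4, was higher in ischemia, at 48.9 and 136 CPM in PT, 32.8 and 110 CPM in DCT-CNT, and 10.6 and 56.5 CPM in macrophages. In macrophages 5 of 585 ischemia cells held 97 of 305 Nrg1 UMIs. Nrg1 was also at least 2-fold higher in B cells, where 16.8% of all genes were, and B cells served as background for free RNA. The part of free RNA in the Nrg1 of macrophages was not tested. Erbb2, the receptor without a ligand of its own, was 12.7 and 10.8 CPM in PT and 18.6 and 20.5 CPM in TAL.

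**Figure D4:**
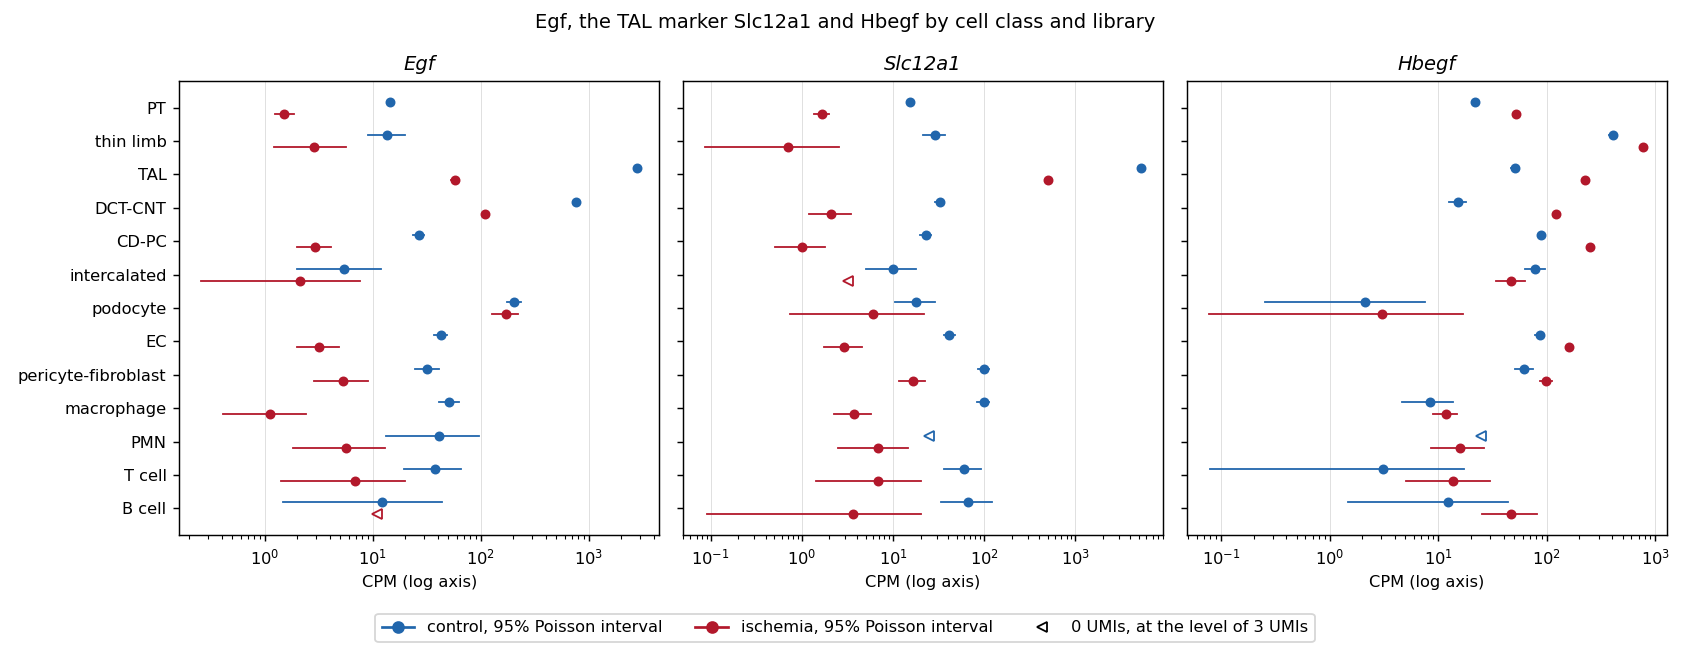
CPM (log axis) of Egf, the TAL marker Slc12a1 and Hbegf in 13 cell classes, control in blue and ischemia in red, with exact 95% Poisson intervals. Egf and Slc12a1 lie lower in ischemia in most classes, while Hbegf lies higher in the tubule classes other than intercalated cells. Open triangles stand at the level of 3 UMIs where there were 0 UMIs.

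Shedding genes act on the ligand precursors, and inhibitors and adaptors act at the receptors. The 5 shedding genes had 1 member at least 2-fold higher in PT (8.29% of all genes), 2 in TAL (9.61%), 2 in DCT-CNT (8.43%), and 0 in the thin limb, CD-PC, endothelial cells and pericytes with fibroblasts, with 0 lower in these classes. In intercalated cells, of 3 with enough UMIs, Adam9 was higher (21 and 44 UMIs) and Adam17 lower (23 and 7 UMIs), where 7.67% and 4.80% of all genes were. Rhbdf2, an iRhom that brings ADAM17 to the cell surface, was 4.29 and 10.7 CPM in PT, 3.38 and 10.0 CPM in TAL and 3.25 and 14.1 CPM in DCT-CNT. It was also at least 2-fold higher in macrophages and podocytes (1 of 4 each), where 6.53% and 2.60% of all genes were. Adam17 itself was close in the libraries in PT, at 13.8 and 14.9 CPM. In neutrophils Adam17 and Adam9 were higher (2 of 4), where 28.1% of all genes were. Of 12 receptor inhibitors, 1 was at least 2-fold higher in PT, Spry1 (1.37 and 3.59 CPM), where 8.29% of all genes were. In TAL 1 of 12 was lower, Socs5 (61.9 and 28.9 CPM), where 8.59% of all genes were. Spry2 was higher in the thin limb (14.7 and 37.7 CPM, 1 of 11), in intercalated cells (9.09 and 21.2 CPM, 1 of 8) and in macrophages (1 and 21 UMIs, 1 of 8). Of all genes, 4.84%, 7.67% and 6.53% were higher in the same order. In T cells Spry2 was lower (75.1 and 32.1 CPM, 1 of 9), where 4.42% of all genes were. In neutrophils, of 4 inhibitors, Cbl was higher and Socs4 lower, where 28.1% and 4.33% of all genes were. Errfi1, an inhibitor that EGFR signalling induces, was lower in PT (391 and 266 CPM) and higher in TAL (58.1 and 84.9 CPM). Of 14 adaptors and effectors, 0 were beyond 2-fold in PT, the thin limb, TAL, DCT-CNT or CD-PC. In these classes 4.84% to 9.61% of all genes were higher and 4.78% to 8.91% lower.

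ERK response genes are targets that are switched on when the kinase is active. At least 2-fold higher were 4 of 7 in PT, 4 of 5 in the thin limb, 3 of 8 in TAL, 2 of 8 in DCT-CNT, 2 of 7 in endothelial cells, 2 of 5 in macrophages and 0 of 6 in pericytes with fibroblasts, and 0 were lower in these classes. Of all genes, 8.29%, 4.84%, 9.61%, 8.43%, 2.89%, 6.53% and 3.43% were higher in the same order. In CD-PC 1 of 8 was higher and 1 lower, where 7.41% and 6.11% of all genes were. Fosl1, an AP-1 subunit, was 0.0418 and 1.47 CPM in PT (3 and 100 UMIs, a ratio of 35.1 with an interval of 11.7 to 173), 0.386 and 5.05 CPM in TAL and 6.10 and 37.7 CPM in the thin limb. Dusp5, a phosphatase of ERK, was 2.79 and 6.29 CPM in PT and 3.57 and 15.1 CPM in TAL, but 19.3 and 12.8 CPM in CD-PC. Phlda1 was 1.42 and 6.70 CPM in PT and 1.46 and 12.4 CPM in DCT-CNT. The list also responds to pathways other than EGFR signalling.

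The genes whose log2(CPM + 1) over the 26 class and library pairs correlated best with each member were Tceal9, Nfib and Hoxb5 for Hbegf (Pearson r of 0.878, 0.866 and 0.866). For Areg they were Klrk1, Tmem273 and Ern1 (0.909, 0.894 and 0.889). For Tgfa they were Flrt2, Atxn7l3b and Csnk1a1, and for Btc Nudt11, Ptges and Gm16035. For Egfr they were Egfros, Ptpn13 and Casc4, with the lowest leading value, 0.769. For Erbb3 they were Gipc2, Hook2 and 1110019D14Rik, and for Erbb4 Stk32b, Gm16310 and Cdh3. Each pair of points of 1 class shares its cell type, and all points of 1 library share its depth and free RNA, so these are descriptions. Ereg had too few UMIs.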

How the data were processed

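Per the labels, single cells were prepared from perfused, enzymatically digested kidney on the 10x Genomics 3′ platform (v2 protocol), with 1 library from the ischemic and 1 from the contralateral kidney. The authors deposited raw UMI counts per gene and barcode, and the submitters' processing notes name Cell Ranger 7.0.0 and mm10. Whether intronic reads were counted is not given in the sources used here.

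A cell was kept if it had 200 or more genes, a UMI total from 500 up to 150000, and no more than 55% of UMIs from mitochondrial genes. Libraries were integrated with Seurat 5.3.0 (2000 variable genes without the members and listed pathway genes, 30 components, resolution 0.3) and clusters were named from marker lists. Scrublet (scanpy 1.11.5) called 0 doublets in either library and so has not worked, and no doublets were removed. Counts were summed per class and library and given as CPM with exact Poisson intervals. Ratios have exact conditional binomial intervals, and shares of cells have Clopper-Pearson intervals. Shares were also taken after thinning each cell to 1000 UMIs, leaving out shallower cells. The median depth was 3839 UMIs per control cell and 2138.5 per ischemia cell. Intervals and floors (3 counts) reflect counting error alone. Each condition had 1 library, so there was no replicate and no test. Called pairs were those at least 2-fold apart with at least 20 UMIs. The scripts were tested on simulated data.

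The 8 members and the lists were chosen with earlier results of these data known. The genes named were the members, the 46 genes of the pathway list, and for each member the 3 genes with the highest correlation among genes with at least 200 UMIs. Alternatives were the mitochondrial and UMI limits, resolution 0.6, no integration, CPM per cell, CPM without mitochondrial UMIs, scaling to the median gene, and other count and fold limits. Leaving out high doublet scores, the 5 highest cells or cells with urothelium markers was added after seeing the data.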

Additional observations from a re-analysis of the deposited data

Results flagged for a closer look

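The comparisons do not use the barcodes removed by the filters on cells. In these barcodes Hbegf, Areg, Tgfa, Egfr and Erbb4 had higher CPM in ischemia than in control. Btc was lower (58 and 29 UMIs, a ratio of 0.633), Erbb3 was close (0.998) and Ereg had 0 and 1 UMIs. The share of all genes higher or lower in these barcodes was not taken, so the members have no background there. The ratio of ischemia to control CPM there was 6.99 for Hbegf (122 and 674 UMIs), 24.0 for Areg (1 and 19 UMIs), 13.1 for Tgfa (3 and 31 UMIs), 1.47 for Egfr and 1.94 for Erbb4.

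For each of 4 members the ratio of ischemia to control differed between cell classes, with the intervals on opposite sides of 1. These differences between classes were not tested, since each class had 1 library per condition. For Hbegf the ratio in DCT-CNT was 13.5 times that in intercalated cells, where it was above 1 at resolution 0.6 (2.01). For Areg the ratio in CD-PC was 60.9 times that in T cells, and 91 of the 93 Areg UMIs of CD-PC in ischemia were in 4 cells with urothelium markers. For Egfr the ratio in DCT-CNT was 2.85 times that in CD-PC, and without integration the DCT-CNT ratio was 1.18. For Erbb4 the ratio in neutrophils was 44.8 times that in macrophages, with 88 of 95 UMIs of ischemia neutrophils and 101 of 117 of control macrophages in 5 cells. Without the highest doublet scores the neutrophil ratio was 0.771 and the macrophage ratio 0.504, so both were below 1.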

How the results depend on the processing

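No paired analysis was possible because the groups hold 1 library each and no test was made. On the log2 scale the ratio of Hbegf in PT, 1.27 as reported, was 0.99 with at most 25% mitochondrial UMIs, 1.17 without integration and 1.16 scaled to the median gene. Areg in macrophages, 2.02, was 4.12 without the 5 highest cells. Tgfa in CD-PC, 1.21, was 0.36 as the mean of each cell's CPM. Btc in CD-PC, -1.24, was -1.43 at the 25% limit. Egfr in PT, 0.34, was 0.22 at the 25% limit, -0.05 without integration, 0.51 as the mean of cells, 0.26 over non-mitochondrial UMIs and 0.23 scaled to the median gene. Erbb3 in PT, -0.01, was -0.10, -0.20 and -0.12 at the 25% limit, without integration and scaled. Erbb4 in TAL, 0.47, was 0.22 at the 25% limit, 0.54 at resolution 0.6, 0.74 without integration, 0.43 as the mean of cells, 0.35 over non-mitochondrial UMIs, 0.44 without the highest doublet scores and 0.37 scaled. The cause of these differences was not tested. The count of pairs at least 2-fold higher, 13 of 53, was 8 of 48 without integration, 8 of 37 with at least 100 UMIs per pair and 22 of 53 at 1.5-fold. The count lower, 4 of 53, was 2 of 51 without the highest doublet scores, 8 of 73 with 1 UMI in each library and 9 of 53 at 1.5-fold. The share of all gene and class pairs was taken under the main setting only, so the other counts have none beside them. Among ratios beyond 2-fold, direction turned for Areg in CD-PC without cells with urothelium markers (-0.20), Tgfa in PT without integration (-0.42, 1 UMI in ischemia) and Erbb4 in neutrophils without the highest doublet scores (-0.37). Among smaller ratios it also turned for Erbb4 in PT under 4 alternatives (0.637-fold to 0.861-fold), for Hbegf in intercalated cells at resolution 0.6 (2.01-fold) and without integration (1.04-fold), and for Egfr (0.901-fold) in the same cells without integration and for Erbb3 there as the mean of cells (-1.04), as well as for ratios close to 1. Hbegf in TAL was 2.39-fold at the 25% limit and in DCT-CNT 4.23-fold without integration. The alternative with Scrublet doublets left out was not run, because 0 were called. The alternatives on doublet scores, the 5 highest cells and urothelium markers were chosen after seeing the data.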
